A study of Mus musculus with 31 samples.

Results

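The CREB factors and their coactivators were followed here in the caudate putamen (CPu) as 10 genes, Creb1, Crem, Atf1, Atf2, Atf4, Crtc1, Crtc2, Crtc3, Crebbp and Ep300. They were taken by name from a table of 52636 gene identifiers, of which 52403 carried a symbol, by a rule that uses no measured value, although the set was proposed with earlier results of these data known. RNA came from a punch of the right CPu of 31 female mice aged 8 to 11 weeks of a strain labelled C57BL/6NTac-Brd1, in full C57BL/6NTac-Brd1tm1.2Arte/AborgMmucd. Wild-type (WT) mice and littermates heterozygous for a targeted deletion within Brd1 (Brd1+/-) received saline (vehicle) or the tricyclic antidepressant imipramine (IMN, 10 mg/kg, under the skin). There were 8 WT vehicle, 7 Brd1+/- vehicle, 8 WT IMN and 8 Brd1+/- IMN mice. All of them, vehicle mice included, were injected on consecutive days, went through tail suspension, open field and forced swim tests, and were killed an hour after the swim, so no group shows an untested brain. Values are TPM, a level of transcripts corrected for their length and scaled to the same total in every library.

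CREB is a leucine-zipper factor that sits on the cAMP response element and switches on genes after kinases such as protein kinase A phosphorylate it. Creb1, Crem and Atf1 encode its closely related subfamily, the CRTC proteins are coactivators that enter the nucleus when calcium and cAMP rise, and Crebbp and Ep300 encode the acetyltransferases CBP and p300 that phosphorylated CREB recruits. Atf2 and Atf4 are more distant relatives that answer to stress kinases and to the integrated stress response. In the striatum this machinery is known for linking dopamine and synaptic input to transcription. BRD1 is a scaffold of histone acetyltransferase complexes, and the series asked how lower Brd1 and imipramine change expression in this region.

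The targeted gene followed the labels. Brd1 was at 22.5 TPM ± 2.97 (SD, n = 8) in WT vehicle and 13.4 TPM ± 2.02 (SD, n = 7) in Brd1+/- vehicle mice, or 59.4% of WT. Under IMN it was at 19.9 TPM ± 2.67 in WT and 12.8 TPM ± 1.04 in Brd1+/- mice (SD, n = 8 each), or 64.0% of WT. The tissue label held for most mice and not for all. The summed level of 10 markers of striatal medium spiny neurons, among them Drd1, Drd2 and Ppp1r1b, ran from 5050 to 9819 TPM over the 23 mice of the other groups. In WT vehicle mice it ran from 276 to 10474 TPM, and mice 1, 2, 4, 5 and 7 of that group lay below every mouse of the other groups. The same 5 mice held the highest sums of 10 markers of cortical excitatory neurons such as Slc17a7 and Tbr1, from 1189 to 1878 TPM, while WT vehicle mice 6 and 8 were at 11.96 and 12.40 TPM. WT vehicle mouse 7 also carried 26.8 TPM of Y-linked transcripts against at most 0.188 TPM in any other mouse, although all mice are labelled female. The called genes among the 10, and the counts of the lists, that rest on WT vehicle mice are therefore given with and without those 5 mice. In bulk tissue, fewer cells of a type and less RNA per cell cannot be told apart.

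Over all 31 mice, Crtc1 stood highest of the 10 genes at a mean of 88.5 TPM, followed by Atf4 at 66.3 TPM, Atf2 at 60.1 TPM and Crtc2 at 50.5 TPM. Ep300 at 28.3 TPM and Crebbp at 21.7 TPM lay in the middle. Crem at 13.4 TPM, Creb1 at 11.4 TPM, Crtc3 at 9.73 TPM and Atf1 at 6.98 TPM closed the order. Between neighbours in this order only Crtc2 and Ep300 had ranges that did not overlap, with Crtc2 above Ep300 in 31 of 31 mice. Atf4 and Atf2 could not be ordered, since Atf4 was above Atf2 in 16 of 31 mice. Among the 17391 genes with a mean of at least 1 TPM, Crtc1 was at percentile 92.3 and Atf1 at percentile 36.6. Creb1, the gene that names the family, was at percentile 48.0.

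**Figure D1:**
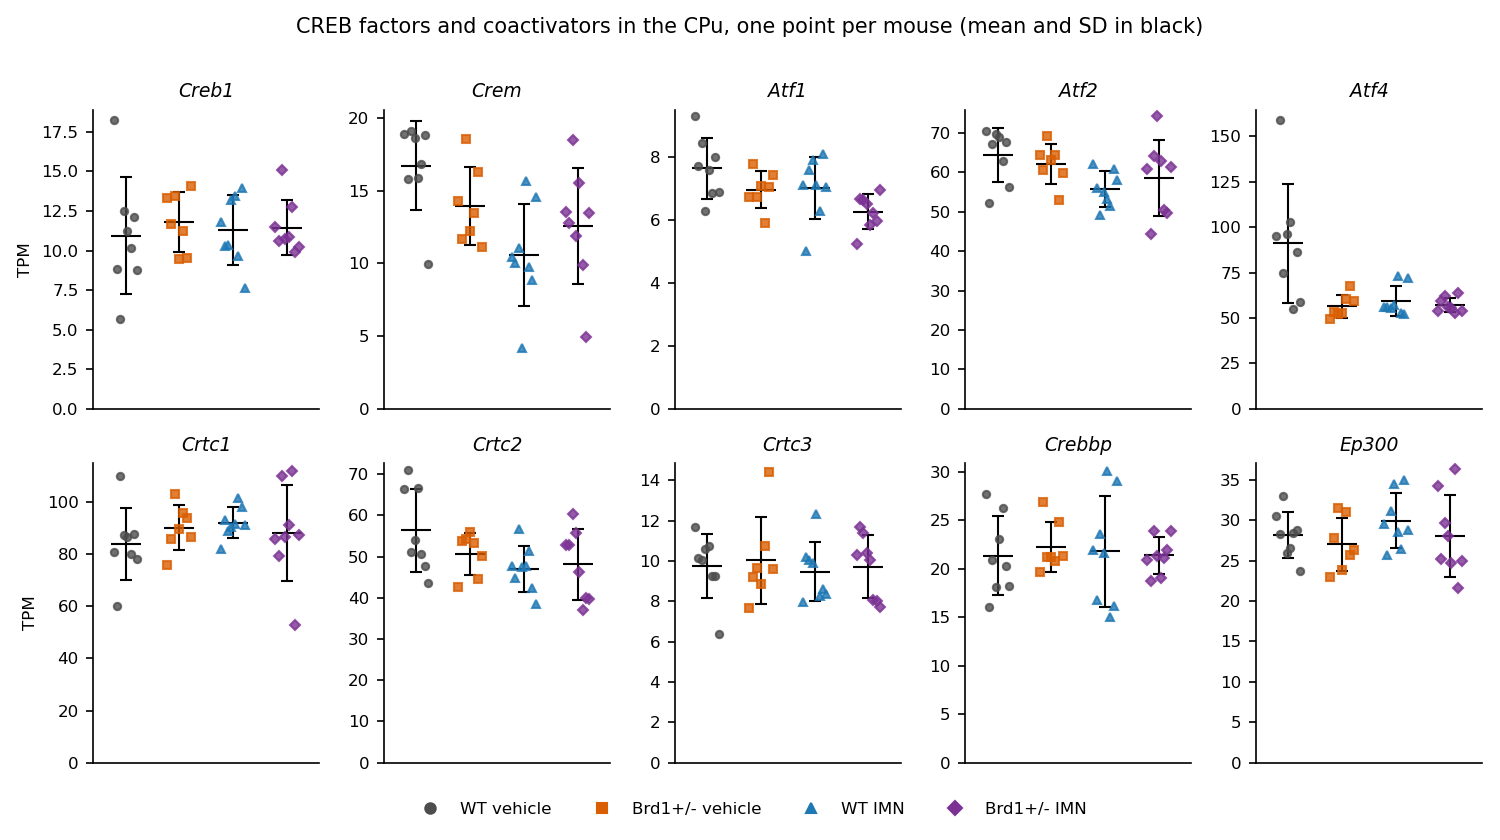
TPM of the 10 genes in each mouse, with 1 panel per gene, 1 point per mouse, colour and shape for the 4 groups, and the group mean with its SD in black; every vertical axis starts at 0. Atf4 in WT vehicle mice spreads from 55.2 to 159 TPM while the other 3 groups lie between 49.5 and 73.1 TPM, and Crem is lowest in WT IMN mice.

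The 10 genes were compared with limma on log2(TPM + 1) in 4 pairs of groups, plus the interaction, which asks whether the difference between IMN and vehicle depends on genotype. A gene counted as changed at an unadjusted p under 0.01, the nominal level of the study. In Brd1+/- vehicle against WT vehicle mice, 1 of 10 genes passed (Atf4, lower), where 13.6% of the 23200 genes tested passed and 12.1% passed as lower. Between WT IMN and WT vehicle mice, 2 of 10 passed (Crem and Atf4, both lower), against 6.95% of 23579 genes, or 5.6% as lower. In Brd1+/- IMN against WT IMN mice none passed against 0.703% of all genes, and in Brd1+/- IMN against Brd1+/- vehicle mice none passed against 1.83%. At an unadjusted p under 0.05, limma picked 0 of the 10 in either of these 2 comparisons, and the exact permutation test picked 0 in the first and 1 (Atf1) in the second. For the interaction, 1 of 10 passed (Atf4, positive) against 3.74% of 25394 genes, 2.97% as positive. After Benjamini-Hochberg adjustment over all genes, none of the 10 reached an FDR of 5% with limma in any of the 5 comparisons. Of all genes, 0.00428% did so in Brd1+/- IMN against WT IMN mice, 0.00424% in WT IMN against WT vehicle mice and 0.0% in each of the other 3. The targeted gene Brd1 itself reached it between the IMN groups (limma adjusted p = 0.0396) and not under vehicle (limma adjusted p = 0.0556). The study, with its own test, reported Brd1 as lower after FDR correction under vehicle. The absence of the 10 genes at this level rested on single WT vehicle mice. Without mouse 8, Atf4 had a limma adjusted p of 0.0123 in Brd1+/- vehicle and 0.041 in WT IMN against WT vehicle mice, and Crem one of 0.0355 and 0.0401. Without mouse 6, Atf4 had a limma adjusted p of 0.0127 and 0.047. These 2 mice held the lowest cortical and the highest striatal sums of their group. Of all genes, 23.8% then reached an FDR of 5% in Brd1+/- vehicle and 10.51% in WT IMN against WT vehicle mice without mouse 8, and 19.9% and 5.03% without mouse 6. Some other settings brought Atf4, Crem or Atf2 under 5% too.

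Read as a group, the 10 genes gave small medians. Their median log2 difference was -0.06 in Brd1+/- vehicle against WT vehicle mice, where the median of all genes tested was -0.13. It was 0.01 against -0.03 in Brd1+/- IMN against WT IMN mice, -0.07 against -0.08 in WT IMN against WT vehicle mice, and -0.06 against 0.01 in Brd1+/- IMN against Brd1+/- vehicle mice. The comparisons of Brd1+/- vehicle and of WT IMN mice share the 8 WT vehicle mice, so a gene that is high in those mice is lower in both. Scaling each mouse by the median of ratios moved the median of all genes by 0.13 in the first of these comparisons.

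**Figure D2:**
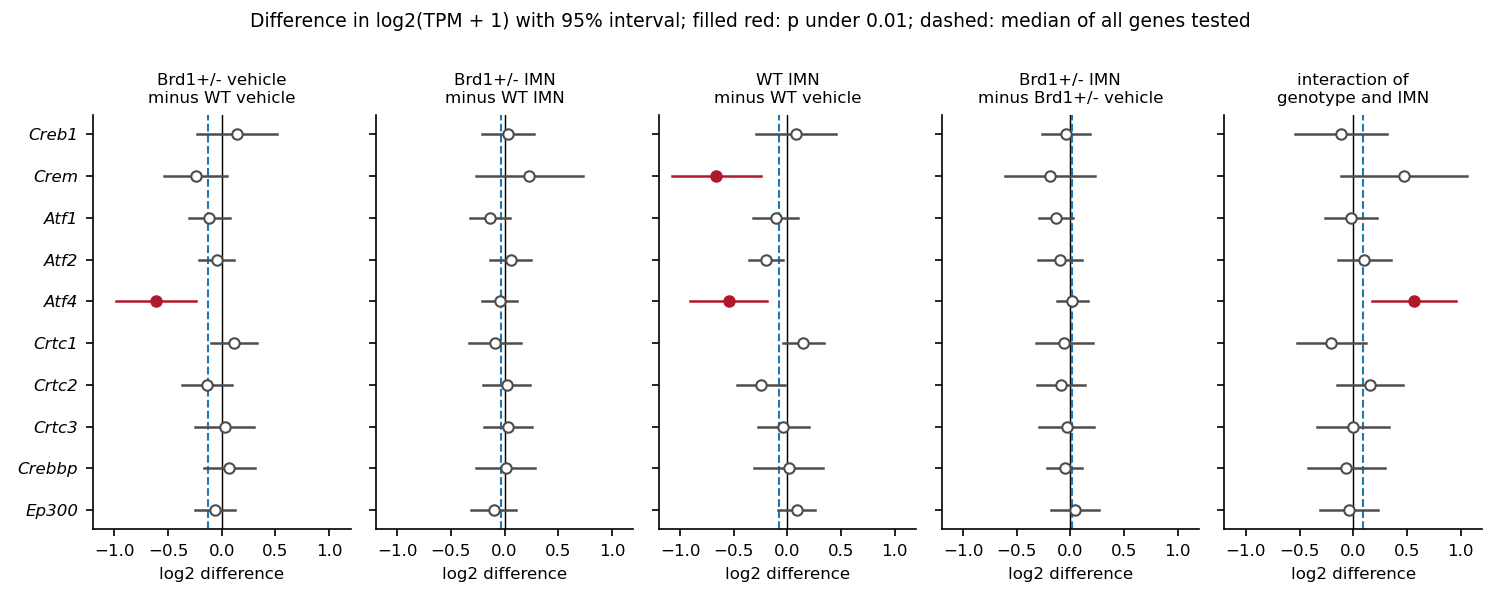
Difference in log2(TPM + 1) of each of the 10 genes in the 4 comparisons and the interaction, with the 95% interval; filled red points have a limma p under 0.01 and the dashed line is the median of all genes tested. The red points are Atf4 in 3 panels and Crem in the panel of WT IMN minus WT vehicle mice.

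Crem, on chromosome 18 (GRCm38, chr18:3266048-3337748, minus strand), encodes a CREB relative whose isoforms include activators and, from an internal promoter, the early repressor ICER. A gene-level TPM does not separate them. In WT vehicle mice Crem was at 9.95, 17.7 and 19.1 TPM (lowest, median and highest of 8 mice). In WT IMN mice it was at 4.19, 10.2 and 15.6 TPM. In Brd1+/- vehicle mice it was at 11.1, 13.4 and 18.6 TPM, and in Brd1+/- IMN mice at 4.92, 13.1 and 18.4 TPM. Thus 7 of 8 WT vehicle mice lay above every WT IMN mouse, mouse 8 being the exception, and the Brd1+/- groups spanned the range between. Crem fell by 0.66 on the log2 scale in WT IMN against WT vehicle mice (limma SE 0.20, p = 0.00356, adjusted p = 0.141, exact two-sided permutation p = 0.00326 with n = 8 each). That was 0.58 below the median of all genes. The Crem call held with each of the 16 mice left out in turn, with log2 differences between -0.76 and -0.51. All 5 erythrocyte markers were at lower values in the same comparison (median -0.54, 2 passed), and their part was not tested.

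The call of Crem, but not its direction, changed when WT vehicle mice were left out together, when a marker score was added and when the replicate number was a block. Without WT vehicle mice 1, 2, 4, 5 and 7 it was -0.52 against the 3 remaining WT vehicle mice (exact permutation p = 0.152, n = 8 and 3, where the smallest possible is 0.00606). With the cortical marker score as a covariate it was -0.39, and with the striatal score -0.59, and neither passed the 0.01 threshold (limma adjusted p = 0.793 and 0.796). In Brd1+/- mice the difference between IMN and vehicle was -0.19 (limma 95% interval -0.61 to 0.23). The interaction was 0.47 (SE 0.29, limma adjusted p = 0.41), so a difference between the genotypes in the response of Crem was not shown. Between genotypes, Crem differed by -0.24 under vehicle (-0.54 to 0.05) and by 0.23 under IMN (-0.27 to 0.73). The vehicle value passed at p under 0.01 when WT vehicle mouse 8 was left out (-0.34, limma adjusted p = 0.0355). A transcript on the opposite strand, Gm6225, overlaps the start of Crem and was at a mean of 1.09 TPM, and whether the libraries kept strand is not given in the sources used here.

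Creb1 on chromosome 1 (chr1:64532645-64604548, plus strand), which encodes CREB itself, did not pass in any comparison. It was at 5.69, 10.7 and 18.3 TPM (lowest, median and highest) in WT vehicle, 9.46, 11.7 and 14.1 in Brd1+/- vehicle, 7.62, 11.1 and 13.97 in WT IMN and 9.89, 10.8 and 15.1 in Brd1+/- IMN mice. The WT vehicle mice held both the lowest and the highest value, and their range covered that of the other 3 groups. The log2 difference between genotypes was 0.15 under vehicle (limma 95% interval -0.23 to 0.52) and 0.03 under IMN (-0.21 to 0.27). The difference between IMN and vehicle was 0.08 in WT (-0.29 to 0.45) and -0.04 in Brd1+/- mice (-0.26 to 0.18). Without the 5 WT vehicle mice low in striatal markers, the genotype difference under vehicle was 0.49 (exact permutation p = 0.0333, n = 7 and 3), and limma too missed the threshold of 0.01. Creb1 made up 30.6% ± 6.47 (SD, n = 8) of the summed TPM of Creb1, Crem and Atf1 in WT vehicle mice and 39.4% ± 7.54 (SD, n = 8) in WT IMN mice, where the share of Crem was 47.4% ± 5.80 and 36.1% ± 9.95.

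Atf1 on chromosome 15 (chr15:100227819-100261244, plus strand) encodes the smallest contributor to the subfamily at 7.65 TPM ± 0.966 in WT vehicle, 6.97 ± 0.590 in Brd1+/- vehicle, 7.03 ± 0.992 in WT IMN and 6.27 ± 0.555 in Brd1+/- IMN mice (SD, n = 8, 7, 8 and 8). The values of neighbouring groups overlapped in every case. Its lowest exact permutation p was 0.0367, for Brd1+/- IMN (5.25, 6.38 and 6.98 TPM as lowest, median and highest) against Brd1+/- vehicle mice (5.92, 7.05 and 7.78 TPM), where the log2 difference was -0.13 (limma SE 0.08, p = 0.0972, adjusted p = 0.76). A processed copy, Atf1-ps on the X chromosome, was listed at a mean of 2.07 TPM, so reads of the 2 loci may be split and the level of Atf1 is uncertain to that extent.

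Atf4 on chromosome 15 (chr15:80255184-80257541, plus strand) encodes the main effector of the integrated stress response, which turns on amino acid supply and redox genes. It also binds CREB-type elements. Atf4 passed the threshold in 3 of the 5 comparisons, more than any other of the 10 genes. In WT vehicle mice 1 to 8 it was at 94.9, 159, 74.8, 96.2, 103, 55.2, 86.6 and 58.8 TPM. In Brd1+/- vehicle mice it was at 49.5, 53.4 and 67.8 TPM (lowest, median and highest of 7), in WT IMN mice at 52.0, 55.9 and 73.1 TPM and in Brd1+/- IMN mice at 52.9, 55.7 and 63.7 TPM. So 6 of 8 WT vehicle mice lay above all 23 other mice, and mice 6 and 8 lay among them. The SD was 32.5 TPM in WT vehicle mice and between 4.00 and 8.40 TPM in the other groups.

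Atf4 fell by 0.61 on the log2 scale in Brd1+/- vehicle against WT vehicle mice (limma SE 0.18, p = 0.00317, adjusted p = 0.0556, exact two-sided permutation p = 0.00559 with n = 7 and 8). In WT IMN against WT vehicle mice it fell by 0.55 (limma SE 0.17, p = 0.0052, adjusted p = 0.141, exact permutation p = 0.00591 with n = 8 each). Both differences rest on the same 8 WT vehicle mice. The first kept its call with each of 15 mice left out in turn (-0.70 to -0.49) but not after median-of-ratios scaling (-0.42, limma adjusted p = 0.113). The second kept its call in 11 of 16 such fits (-0.64 to -0.42) and after that scaling (-0.42), and lost it without WT vehicle mouse 1, 4 or 5 or WT IMN mouse 6 or 7, at -0.53 to -0.51. In the pairs of groups without them, Brd1+/- IMN and WT IMN mice differed by -0.05 (limma 95% interval -0.21 to 0.11) and Brd1+/- IMN and Brd1+/- vehicle mice by 0.02 (-0.13 to 0.16). The interaction was 0.57 (limma SE 0.19, adjusted p = 0.261), made of a fall with IMN in WT mice and a difference of 0.02 in Brd1+/- mice. It passed in 22 of 31 fits with 1 mouse left out and not after median-of-ratios scaling (0.43).

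The 6 WT vehicle mice with high Atf4 were mice 1, 2, 3, 4, 5 and 7, which include the 5 mice low in striatal and high in cortical markers. Mouse 3 had 902 TPM of cortical and 6564 TPM of striatal markers. Mouse 2, with the highest Atf4 at 159 TPM, had the lowest striatal sum at 276 TPM. Mice 6 and 8, with Atf4 inside the range of the other groups, had 11.96 and 12.40 TPM of cortical markers. Outside this group, WT IMN mice 5 and 8 had the highest Atf4 at 73.1 and 72.3 TPM and the highest cortical sums of the 23 mice at 1066 and 437 TPM. Without WT vehicle mice 1, 2, 4, 5 and 7 the log2 difference of Atf4 was -0.15 for Brd1+/- vehicle (exact permutation p = 0.258, n = 7 and 3) and -0.08 for WT IMN mice (exact permutation p = 0.527, n = 8 and 3), and the interaction was 0.10. With the cortical marker score as a covariate these were -0.26, -0.23 and 0.30 (limma adjusted p = 0.664, 0.793 and 0.916). With the striatal score they were -0.24, -0.20 and 0.18 (limma adjusted p = 0.535, 0.812 and 0.998). None of these values passed at an unadjusted limma p under 0.01.

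**Figure D3:**
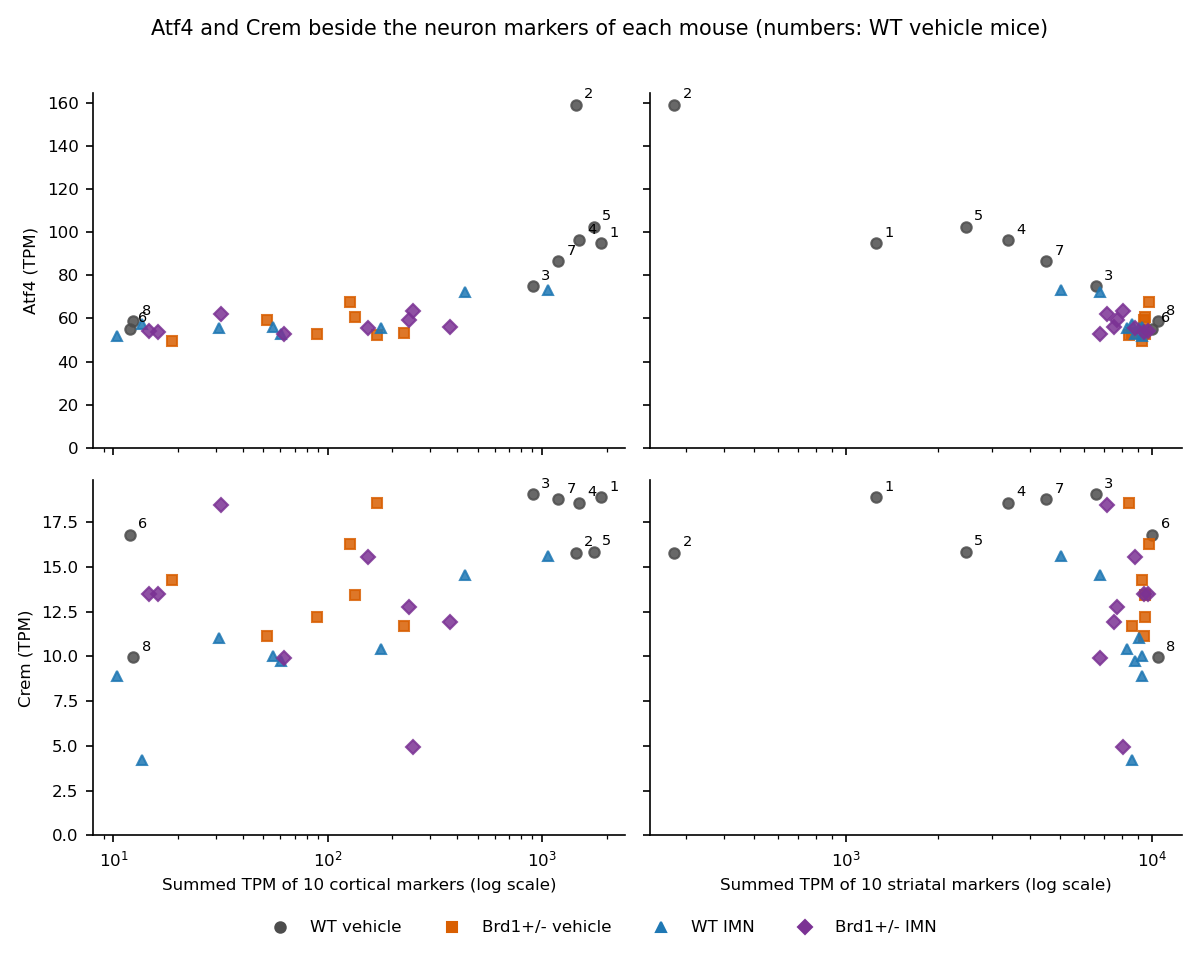
Atf4 (top) and Crem (bottom) in TPM against the summed TPM of 10 cortical markers (left) and 10 striatal markers (right) on log axes, with 1 point per mouse and the numbers of the WT vehicle mice. Atf4 lies between 49.5 and 73.1 TPM in all mice of the other groups and reaches 159 TPM in WT vehicle mouse 2, whose striatal sum is 276 TPM.

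**Figure D4:**
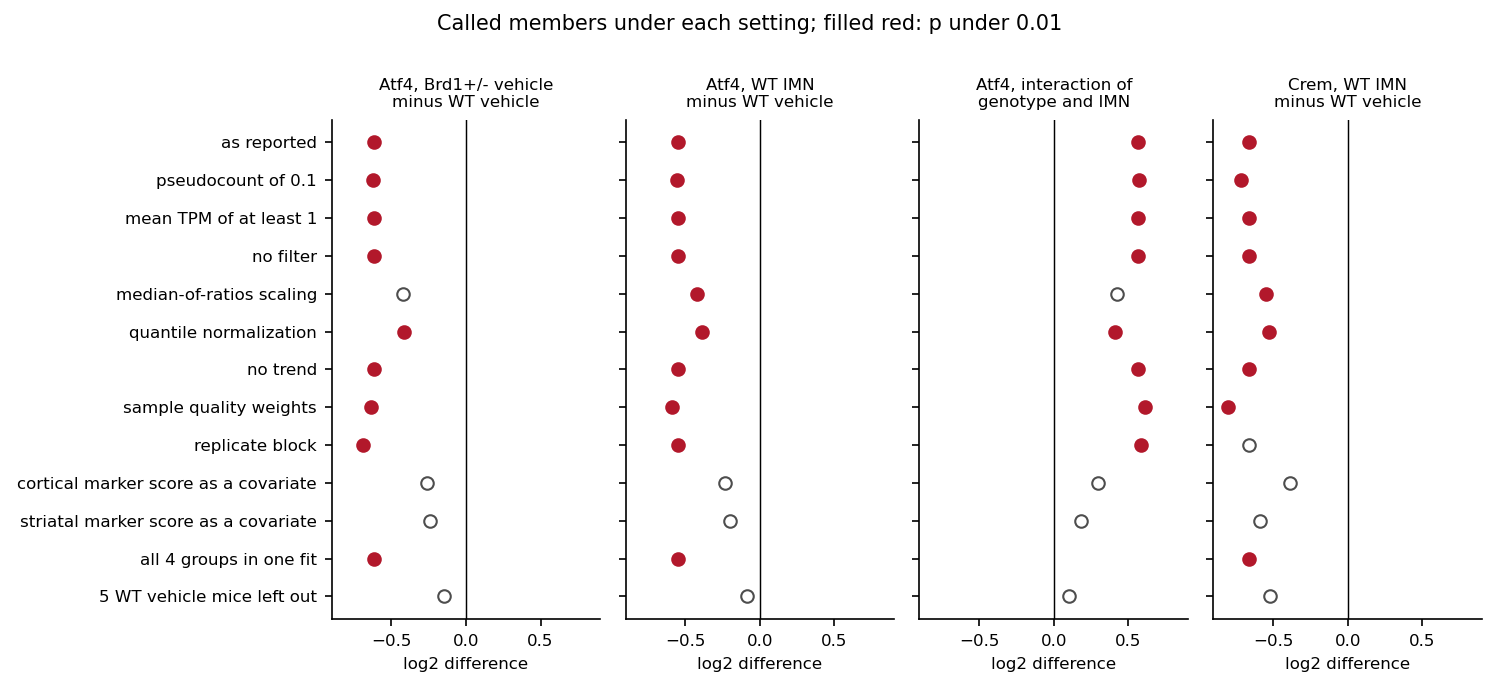
Log2 difference of Atf4 in 3 comparisons and of Crem in 1 under each setting of the analysis, filled red where the limma p is under 0.01. The Atf4 differences shrink to -0.15, -0.08 and 0.10 and lose the call when the 5 WT vehicle mice low in striatal markers are left out, and that of Crem goes to -0.52.

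The genes most like Atf4 across the 31 mice, after each group's mean was taken out, were Camk2n2, an inhibitor of CaM kinase II (Pearson r = 0.957), Ina, a neurofilament protein (r = 0.946), and Ccdc136 (r = 0.942). The mice of these correlations differ in their marker levels, as described above, and no test is given. Camk2n2 was at 106 TPM ± 98.1 in WT vehicle mice (SD, n = 8) with a range of 26.1 to 332 TPM, and its means in the other groups lay between 29.7 and 33.0 TPM. For Crem the most alike were the predicted genes Gm29696 (r = 0.834) and Gm12319 (r = 0.702) and the iron transporter Slc11a2 (r = 0.66). Among the 10 genes themselves the closest pairs were Crtc1 with Ep300 (r = 0.548) and Crtc2 with Crtc3 (r = 0.531), and Crem with Creb1 had r = 0.05.

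Because CREB factors can bind at each other's genes, the promoters were read for the cAMP response element. Windows of 300 bases, 250 before and 50 after the start, were held by RefSeq (GRCm38.p6) for 8 of the 10 genes. The full element TGACGTCA, which reads the same on both strands, was in none of the 8 and in 1.79% of 32851 windows. The shorter TGACG, or CGTCA on the other strand, was in 20.8% of windows and in those of Atf1 and Atf4. The 250 bases before Atf4 are shown because Atf4 is the gene with called differences in 3 comparisons, with the first match in capitals, and the other matches follow with their surroundings. All are printed as the plus strand, on which the Atf4 matches read CGTCA and the Atf1 match reads TGACG.
Atf4, chr15:80254934-80255183: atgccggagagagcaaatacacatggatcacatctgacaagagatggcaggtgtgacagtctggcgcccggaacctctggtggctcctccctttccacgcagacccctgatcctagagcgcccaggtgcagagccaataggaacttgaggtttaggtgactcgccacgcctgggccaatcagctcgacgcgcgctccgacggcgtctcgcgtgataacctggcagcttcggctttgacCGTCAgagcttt
Atf4, chr15:80255212-80255233: acaccggaaattCGTCAacgag
Atf1, chr15:100227757-100227785: gtgaccacgcggTGACGcagcacgccggc
The Atf4 matches begin 12 bases before and 40 bases after the RefSeq start at position 80255184. That of Atf1 begins 90 bases before its RefSeq start at position 100227859, which lies inside the gene interval given above. A match in letters is not a measured binding site.

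Atf2, on chromosome 2 (chr2:73816509-73892639, minus strand), encodes a factor that stress-activated kinases phosphorylate and that pairs with Jun proteins. It was at 52.3, 67.5 and 70.4 TPM (lowest, median and highest) in WT vehicle, 53.0, 63.1 and 69.2 in Brd1+/- vehicle, 49.3, 55.5 and 62.1 in WT IMN and 44.3, 61.2 and 74.4 in Brd1+/- IMN mice. The WT IMN mice all lay below the WT vehicle median, and mice 3 and 6 of them, at 49.3 and 51.6 TPM, lay below every WT vehicle mouse. The log2 difference between them was -0.20 (limma SE 0.07, p = 0.0143, adjusted p = 0.15, exact permutation p = 0.0134 with n = 8 each), just outside the threshold. It passed with the striatal score as a covariate (-0.24, limma adjusted p = 0.757) and not without the 5 WT vehicle mice low in striatal markers (-0.15, exact permutation p = 0.097, n = 8 and 3). In Brd1+/- mice the same contrast gave -0.10 (limma 95% interval -0.30 to 0.11), and the interaction was 0.10 (-0.14 to 0.35).

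Of the 3 CRTC coactivators, Crtc1 (chr8:70382355-70439579, minus strand), the form known as most abundant in neurons, made up 59.4% ± 5.24 (SD, n = 31) of their summed TPM, Crtc2 (chr3:90254163-90264125, plus strand) 34.0% ± 4.88 and Crtc3 (chr7:80586627-80688877, minus strand) 6.56% ± 0.963. None of the 3 passed the threshold in any comparison. Crtc1 was at 60.2, 83.7 and 110 TPM (lowest, median and highest) in WT vehicle, 75.8, 89.9 and 103 in Brd1+/- vehicle, 82.0, 91.3 and 102 in WT IMN and 52.8, 87.0 and 112 in Brd1+/- IMN mice. The widest range of Crtc1 was thus in Brd1+/- IMN mice. Its log2 difference was 0.12 for genotype under vehicle (limma 95% interval -0.10 to 0.33) and 0.15 for IMN in WT mice (-0.04 to 0.34). Both passed at p under 0.01 after quantile normalization, at 0.32 each (limma adjusted p = 0.1 and 0.165).

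Crtc2, the form best known from liver gluconeogenesis, had 43.5, 52.5 and 70.9 TPM (lowest, median and highest) in WT vehicle mice and 38.4, 47.5 and 56.7 TPM in WT IMN mice. The ranges of these 2 groups overlapped, with a log2 difference of -0.24 (limma SE 0.11, adjusted p = 0.185). Without the 5 WT vehicle mice low in striatal markers it was -0.044 (exact permutation p = 0.691, n = 8 and 3). Between genotypes Crtc2 differed by -0.14 under vehicle (-0.37 to 0.09) and by 0.02 under IMN (-0.20 to 0.24). Crtc3 was between 9.46 and 10.03 TPM in the 4 group means, with log2 differences from -0.04 to 0.03 in the 4 pairs of groups and an interaction of 0.00 (limma 95% interval -0.33 to 0.34).

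Neither acetyltransferase coactivator passed the threshold in any comparison. Crebbp (chr16:4081328-4213997, minus strand) was at 21.3 TPM ± 4.10 in WT vehicle, 22.3 ± 2.60 in Brd1+/- vehicle, 21.8 ± 5.72 in WT IMN and 21.4 ± 1.92 in Brd1+/- IMN mice (SD, n = 8, 7, 8 and 8). Ep300 (chr15:81585351-81652077, plus strand) was at 28.2 TPM ± 2.84, 27.0 ± 3.32, 30.0 ± 3.42 and 28.1 ± 5.05 in the same order. The groups overlapped throughout for both genes. Of their 8 log2 differences the widest was that of Ep300 between genotypes under IMN at -0.10 (limma 95% interval -0.31 to 0.11). For Crebbp between genotypes the intervals ran from -0.17 to 0.31 under vehicle and from -0.26 to 0.28 under IMN. The ratio of Crebbp to Ep300 was 0.759 ± 0.133 in WT vehicle, 0.834 ± 0.125 in Brd1+/- vehicle, 0.735 ± 0.207 in WT IMN and 0.782 ± 0.150 in Brd1+/- IMN mice.

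Genes around the 10 were described from 5 lists. The shares of all genes beside calls at p under 0.01 are those of the fit with all mice and no score. Without the 5 WT vehicle mice, calls over all genes fell from 3153 to 95 in Brd1+/- vehicle against WT vehicle mice. They fell from 1639 to 181 in WT IMN against WT vehicle mice and from 951 to 105 for the interaction. A lower count in a list there is thus not particular to the list. Of 35 CREB kinases and regulators, 8 were lower and 0 higher in Brd1+/- vehicle against WT vehicle mice, where 12.1% of all genes passed as lower and 1.47% as higher. The list median was -0.03 against -0.13 for all genes. The 8 became 2 with the cortical score, 0 with the striatal score and 0 without the 5 WT vehicle mice. After median-of-ratios scaling 2 were lower and 4 higher, and the share of lower genes among all calls went from 89.2% to 56.4%. The 3 with the smallest p were Prkar1b, a regulatory subunit of protein kinase A (-1.19), Camk1, a calcium-dependent kinase (-1.31), and Prkaca, the main catalytic subunit of protein kinase A (-0.38), each with a limma adjusted p of 0.0556. With IMN, 3 were lower in WT mice (5.6% of all genes), namely Prkaca (-0.36), the CaM kinase kinase Camkk1 (-0.49) and Prkar1b (-0.93), and none passed with either score or without the 5 mice. With 1 mouse left out, Prkaca passed in 16 of 16 fits, Camkk1 in 5 and Prkar1b in 4. After quantile normalization 1 gene of the list was lower and 2 were higher. In Brd1+/- mice 1 was lower with IMN, Camkk2 (-0.28, limma adjusted p = 0.497), against 0.964% of all genes, and between the IMN groups none passed. That call was lost with the striatal score (-0.13, limma adjusted p = 0.828) and after either scaling. In the same comparison all 10 striatal markers were at lower values (median -0.19, 1 passed) and all 6 oligodendrocyte markers at higher ones (0.40 to 0.58, none passed). Their part in the results was not tested beyond these scores.

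Of 34 CREB target genes, 3 were higher and 6 lower in Brd1+/- vehicle against WT vehicle mice, beside 1.47% and 12.1% of all genes. With either marker score and without the 5 mice these counts were 0 and 0. The higher ones with all mice were the opioid precursors Pdyn (1.09) and Penk (1.59) and the G-protein regulator Rgs2 (0.79). With 1 mouse left out, Pdyn passed in 5 of 15 fits, and Penk and Rgs2 in 3 each. Penk is also on the striatal marker list. Nptx2, Sst and Ier2 led the lower ones at -0.65, -0.44 and -1.04, and each passed in 15 of 15 fits with 1 mouse left out. With IMN, 5 targets were lower and 1 higher in WT mice, where 5.6% and 1.35% of all genes passed. With either score 3 were lower and 0 higher, and without the 5 mice 1 was lower and 0 higher. Among Brd1+/- mice 6 were lower, against 0.964% of all genes, and 7 with the striatal score. The synaptic activity gene Arc changed by -1.13 in WT (limma adjusted p = 0.119) and by -1.12 in Brd1+/- mice (limma adjusted p = 0.0967), and between the IMN groups it was the 1 target that passed, at -0.65 (limma adjusted p = 0.817), where 0.514% of all genes passed as lower. Between the IMN groups all 5 erythrocyte markers were at higher values (0.45 to 0.66, 1 passed), and their part was not tested. Egr1, another activity gene, fell by 0.60 in Brd1+/- mice (limma adjusted p = 0.074).

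Of 27 ATF4 target genes, 8 were lower and 0 higher in Brd1+/- vehicle against WT vehicle mice, beside 12.1% and 1.47% of all genes, with a list median of -0.31 against -0.13 for all genes. After median-of-ratios scaling 2 were lower and 1 higher, with a list median of -0.12. The 8 became 1 with the cortical score, 1 with the striatal score and 0 without the 5 mice, with list medians of -0.12, -0.19 and -0.093. Cars, a tRNA synthetase, fell by 0.68, Chac1, a glutathione-degrading enzyme, by 0.73, and Ddit3, a stress transcription factor, by 0.31. With IMN, 5 were lower and 2 higher in WT mice, beside 5.6% and 1.35% of all genes. The cortical score left 0 lower and 1 higher, the striatal score 1 lower and 0 higher, and leaving out the 5 mice 0 lower and 1 higher. The higher ones were Trib3, a pseudokinase, and Ddit4, an inhibitor of mTOR signalling, at 0.78 and 0.48, and Slc7a5, an amino acid transporter, fell by 0.35. In Brd1+/- mice Ddit4 rose with IMN by 0.87 (limma adjusted p = 0.115), while Nupr1 fell by 1.01 and Aldh18a1 by 0.42. As shares of all genes, 0.869% were higher and 0.964% lower there, and with the striatal score Aldh18a1 lost its call (-0.32). The interaction was positive for Chac1, Cars and Sesn2 at 0.68, 0.55 and 0.69, beside 2.97% of all genes. After median-of-ratios scaling 1 gene of the list passed, and with either score or without the 5 mice none did.

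Among 18 other ATF and CREB family factors, of which 15 to 18 could be tested, Jdp2, a repressor that dimerizes with Jun and ATF proteins, was the 1 that passed, at -1.50 in Brd1+/- vehicle against WT vehicle mice and 1.32 for the interaction, beside 12.1% of all genes as lower and 2.97% as positive. It passed in neither with either score or without the 5 mice. Among 16 partners of CBP and p300 and other acetyltransferases, Cited2, which competes for CBP and p300, fell by 0.27 in WT IMN against WT vehicle mice, where 5.6% of all genes passed as lower, and no gene of this list passed after either scaling, with the cortical score or without the 5 mice. With the striatal score Cited2 kept its call (-0.26). The acetyltransferase genes Kat6b and Kat2b rose by 0.35 and 0.39 with IMN in Brd1+/- mice (0.869% of all genes), and Kat2b lost its call with the striatal score (0.36). None of the genes of the 5 lists reached an FDR of 5% in the limma fits reported here. Other settings that kept all mice brought some under it. With sample quality weights it was 41.1% of the list genes tested against 29.5% of all genes in Brd1+/- vehicle and 37.4% against 20.6% in WT IMN against WT vehicle mice, and 19.8% against 10.33% for the interaction. In 1 fit over the 4 groups the shares were 34.9% against 19.5% and 21.4% against 9.02% in the first pair of comparisons. For Brd1+/- vehicle mice they were 27.4% against 15.4% with the replicate block and 12.6% against 10.49% with a mean of at least 1 TPM. In Brd1+/- IMN against Brd1+/- vehicle mice 2 list genes reached it with the cortical score, where 6 of all genes did, and 2 in the fit over the 4 groups, where 4 did. The 3 comparisons that use WT vehicle mice gave 32 named calls in these lists. Without the 5 WT vehicle mice low in striatal markers, which leaves 3, all 32 kept their direction, 31 were smaller and 25 fell under 0.5 of their size. These calls were picked by their p in the fit with all mice, and the refit uses the remaining ones again. A kept direction and a smaller size therefore do not test the calls. Arc (-0.60) and Ddit4 (0.46) in WT IMN mice were the 2 still under the limma threshold of 0.01, and Aldh18a1 in WT IMN mice was the 1 that was larger (-0.37 against -0.33).

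**Figure D5:**
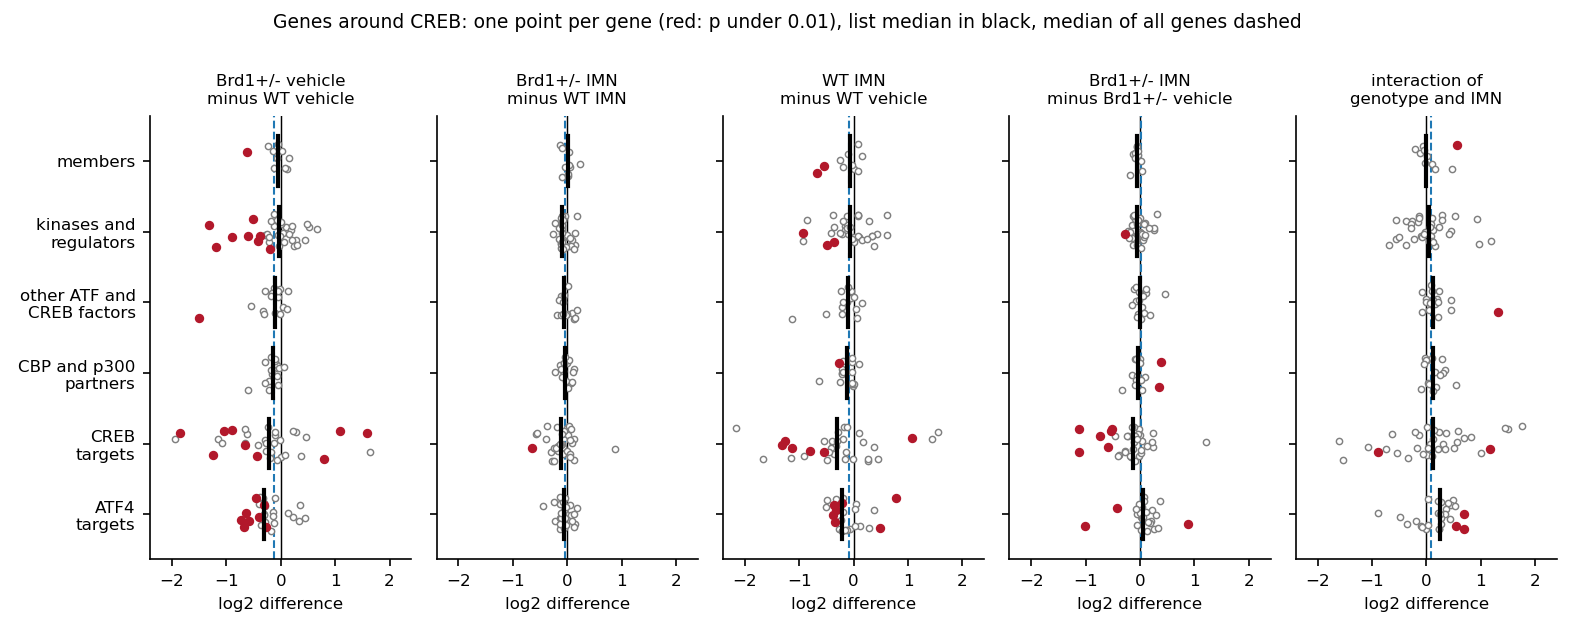
Log2 difference of each gene of the 10 CREB factors and coactivators (members) and of the 5 lists around them in the 4 comparisons and the interaction, with 1 point per gene, red where the limma p is under 0.01, the list median as a black bar and the median of all genes as a dashed line. The ATF4 targets have a median of -0.31 in the first panel and -0.06 between the IMN groups.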

How the data were processed

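Per the labels and the study's methods, CPu libraries were sequenced on the BGISEQ-500 platform, and reads were aligned to GRCm38 with HISAT2 2.1.0 and quantified with StringTie 1.3.4, with FastQC and Trimmomatic also named. The authors deposited TPM per gene, whose columns sum to between 999787 and 999918, and no read counts were used here, so depth per mouse and counting error are unknown. The study's own test is a count model and was not run. Instead, log2(TPM + 1) was fitted with limma 3.58.1 (R 4.3.3, trended variance) on the 2 groups compared, or on all 4 for the interaction, over genes above 0.1 TPM in at least 7 mice. A call is an unadjusted p under 0.01, and Benjamini-Hochberg adjustment ran over all genes tested at an FDR of 5%. Exact two-sided permutation tests of 40 single differences (10 genes, 4 pairs of groups) are unadjusted. The script was tested on simulated data. Alternatives were the pseudocount, filters, scaling, variance trend, sample quality weights, the replicate number as a block, marker scores as covariates, 1 fit over 4 groups and each mouse left out. The exact permutation test and the fit without 5 WT vehicle mice were chosen after seeing the data. Nothing in the labels ties a mouse to a litter. Each p-value sets a difference against the spread between the mice compared, and WT vehicle mice also differ widely in their marker sums.

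The 10 genes and all lists were chosen with earlier results of these data known. Named besides them were Brd1, in each pathway list and comparison up to 3 genes per direction with the smallest p under 0.01, the 3 genes most correlated with a member at a mean of at least 1 TPM, and marker genes. Gene positions are from GENCODE on GRCm38. Of 52636 identifiers, 233 had no symbol.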

Additional observations from a re-analysis of the deposited data

Results flagged for a closer look

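In WT vehicle mice, Crem of mouse 8 stood apart from the other 7 at 9.951 TPM, Atf4 of mouse 2 stood apart at 159.1 TPM, and Crtc3 of mouse 8 stood apart at 6.378 TPM. These are 3 of the 44 sets of group values examined for a mouse apart, and chance gives about 1 in 20. The log2 difference of Atf4 between IMN and vehicle differed between the genotypes by 0.5666 (limma adjusted p = 0.261), and by 0.10 without the 5 WT vehicle mice low in striatal markers. Y-linked genes, which no comparison used, summed to 26.79 TPM in WT vehicle mouse 7 and to at most 0.188 TPM in the other mice. Without that mouse the calls of Atf4 and Crem kept their direction and their side of the threshold.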

How the results depend on the processing

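The 10 genes kept direction and side of the threshold in 550 of 610 refits under other settings and in 855 of 930 with 1 mouse left out. Most of these refits were of differences that had not passed. A call was lost in 15 of the 610 and 14 of the 930. Under other settings the Atf4 call held in 9 of 13 for Brd1+/- vehicle and 10 of 13 for WT IMN against WT vehicle mice. The Crem call in WT IMN against WT vehicle mice held in 9 of 13. The number of the 10 called in Brd1+/- vehicle against WT vehicle mice was 0 with median-of-ratios scaling, with the cortical score, with the striatal score and without the 5 WT vehicle mice low in striatal markers, 2 with quantile normalization and with quality weights, and 1 to 2 with 1 mouse left out (2 without WT vehicle mouse 8, which adds Crem). Of all genes, 2136 passed there with median-of-ratios scaling, 2209 with quantile normalization and 6137 with quality weights, against 3153 as reported. It was 95 without the 5 mice and 2036 to 5154 with 1 mouse left out. In WT IMN against WT vehicle mice the number of the 10 was 3 with quantile normalization (Crtc1 added) and with quality weights (Atf2 added), and 1 with the replicate block (Atf4). With the striatal score it was 1, which was Atf2, while Crem and Atf4 lost their calls. It was 0 with the cortical score and without the 5 mice, and 1 to 3 with 1 mouse left out. Of all genes, 1378 passed with quantile normalization and 4798 with quality weights, against 1639 as reported. It was 181 without the 5 mice and 905 to 3576 with 1 mouse left out. Atf4 lost its call in this comparison without WT vehicle mouse 1, 4 or 5 or WT IMN mouse 6 or 7, with p from 0.01 to 0.0113, and Atf2 gained one without WT vehicle mouse 2 or 8 or WT IMN mouse 1. For the interaction the number of the 10 was 0 with median-of-ratios scaling, either score and without the 5 mice, and 0 to 1 with 1 mouse left out, Atf4 losing the call without WT vehicle mouse 1, 4 or 5, Brd1+/- vehicle mouse 1, 3 or 4, WT IMN mouse 6 or 7 or Brd1+/- IMN mouse 7. Of all genes, 805 passed with median-of-ratios scaling, 105 without the 5 mice and 546 to 2571 with 1 mouse left out, against 951 as reported. Over all genes, calls ranged from 95 to 6137 in Brd1+/- vehicle against WT vehicle mice (3153 as reported), from 181 to 4798 in WT IMN against WT vehicle mice (1639) and from 105 to 3458 for the interaction (951), lowest without the 5 mice and highest with quality weights. Between the IMN groups they ranged from 97 to 252 (164) and in Brd1+/- mice from 296 to 500 (422). Of the calls, 89.2% were lower in Brd1+/- vehicle mice, 56.4% after median-of-ratios scaling and 51.3% after quantile normalization, and in WT IMN mice 80.6%, 52.1% and 47.2%. Between the IMN groups 73.2%, 56.7% and 55.6% were lower, and for the interaction 20.8%, 49.7% and 58.3% were negative. The causes were not tested.

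Same-numbered mice had correlations between -0.39 and 0.41 over 30 pairs and 8 of 62 mice correlated best with their own number, 5 of them among the 15 of Brd1+/- IMN against Brd1+/- vehicle mice, where 3 of 7 pairs had correlations of 0.14 to 0.21. No comparison had every pair over 0.1, and the numbers were not taken to pair mice. The replicate block took the Crem call in WT mice (-0.66, limma adjusted p = 0.196), changed no other call of the 10 genes and turned Crtc3 to -0.0464 in Brd1+/- vehicle against WT vehicle mice and to 0.0048 in Brd1+/- IMN against Brd1+/- vehicle mice.

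The other turns of sign were of differences that had not passed. In Brd1+/- vehicle against WT vehicle mice, median-of-ratios scaling and quantile normalization gave 0.0561 and 0.096 for Atf1, 0.14 and 0.15 for Atf2, 0.0532 and 0.0565 for Crtc2 and 0.12 and 0.13 for Ep300. The cortical score gave 0.0246 for Crtc2 and 0.0067 for Ep300, the striatal score -0.0198 for Crtc1 and 0.0479 for Crtc2, quality weights -0.0296 for Crtc3, and leaving out the 5 mice 0.0007 for Atf2 and 0.0629 for Crtc2. In WT IMN against WT vehicle mice, the 2 scalings gave 0.0019 and 0.0156 for Atf1 and 0.0793 and 0.10 for Crtc3, the cortical score 0.0926 and the striatal score 0.0611 for Crtc3, and leaving out the 5 mice 0.14. Crebbp went to -0.0182 with the striatal score, -0.0143 with quality weights and -0.0253 without the 5 mice. For the interaction, the 2 scalings gave -0.0361 and -0.0551 for Atf2, -0.13 and -0.16 for Crtc3 and -0.0206 and -0.0433 for Brd1, the cortical and striatal scores -0.12 and -0.11 for Crtc3, the striatal score -0.0222 for Crtc2, and leaving out the 5 mice -0.0429 for Crtc2, -0.17 for Crtc3 and -0.0231 for Brd1. Between the IMN groups, quality weights gave -0.0115 for Creb1 and -0.0117 for Crtc2, and quantile normalization 0.0005 for Atf4. In Brd1+/- mice the striatal score gave -0.0254 for Ep300.

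With 1 mouse left out, signs turned for Crtc3 (-0.0552 to 0.0832) in Brd1+/- vehicle against WT vehicle mice. Between the IMN groups they turned for Creb1 (-0.0413 to 0.0724), Crtc1 (-0.14 to 0.0090), Crtc2 (-0.0289 to 0.0692), Crtc3 (-0.0053 to 0.0835) and Crebbp (-0.0588 to 0.0781). Between the WT groups they turned for Creb1 (-0.0325 to 0.19) and Crebbp (-0.0599 to 0.0770). In Brd1+/- mice they turned for Creb1 (-0.0926 to 0.0031), Atf4 (-0.0117 to 0.0626), Crtc1 (-0.11 to 0.0412), Crtc3 (-0.0890 to 0.0493) and Ep300 (-0.0098 to 0.0937). For the interaction they turned for Atf1 (-0.0808 to 0.0109), Crtc3 (-0.0517 to 0.0867), Crebbp (-0.13 to 0.0067) and Ep300 (-0.0940 to 0.0094). Depth cannot be read from TPM, so counting error for the low genes is not known.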
